A study of Rattus norvegicus with 6 samples.

Results

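Matrix metalloproteinases and their tissue inhibitors were followed in rat pancreas 24 h after a crush injury, as 9 genes of the 34001 in the deposited table. They were matched by gene name: the inhibitors Timp1, Timp2 and Timp3, and the proteases Mmp2, Mmp3, Mmp7, Mmp12, Mmp14 and Adamts1. RNA came from 6 Sprague-Dawley rats, an outbred laboratory strain, with 2 rats in each of 3 groups. In the TP+hucMSC-Exs group the exposed gland was struck and squeezed by an impactor set to 3 cm2 and 10 kg, and exosomes from human umbilical cord mesenchymal stem cells were given into the tail vein at 10 μg per 100 g. Rats of the TP group (traumatic pancreatitis) had the same injury and 1 ml of saline. Rats of the Control group had the abdomen opened and the pancreas turned over with swabs, and received 1 ml of saline, so that they too had surgery. The labels give neither age nor sex. The injury is mechanical and local, and the sequenced tissue was not sorted, so that each value is a mix over all cells sampled.

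Matrix metalloproteinases are zinc enzymes that cut collagens, other matrix proteins and many cell surface proteins. Most are secreted as inactive proenzymes, and TIMPs block the active enzymes by binding to their catalytic site. In injured pancreas the system is studied for the clearing of damaged matrix and for the fibrosis that can follow, and stellate cells, fibroblasts and macrophages are known sources of its parts. Values are TPM, transcript abundances per gene length scaled to the same total in every library, so that levels of different genes can be compared within a library. TPM hold no sequencing depth, which is therefore unknown.

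The TP libraries were unlike each other, and this touches every result below. The TP+hucMSC-Exs libraries had 9924 and 10537 genes of at least 1 TPM, TP replicates 1 and 2 had 6498 and 13629, and the Control libraries had 5533 and 7863. On the log2 scale and with the mean of Control as 0, the median gene was at 0.97 and 1.22 in TP+hucMSC-Exs and at 0.00 and 3.00 in TP replicates 1 and 2. The 8 acinar markers listed, genes of the enzyme-secreting cells, were detected in every library. Their sum was 409714 and 379113 TPM in TP+hucMSC-Exs, 458264 and 121730 TPM in TP, and 499569 and 474578 TPM in Control. The 7 fat cell markers summed to 4203 TPM in TP replicate 2, against 16.2 to 36.4 TPM in the other 5 libraries. Digestive enzymes took 21.8% of TPM in TP replicate 2 and 62.7% to 87.8% in the other libraries. Mitochondrial transcripts took 4.58% of TPM in TP replicate 2 and 0.582% to 0.928% in the other 5 libraries; their part in the results was not tested. TPM share 1 total, so that a smaller share for these genes leaves more for the rest. In whole tissue, fewer cells of a type and less RNA per cell cannot be told apart.

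Timp1 (ENSRNOG00000010208), the secreted inhibitor that acute injury and inflammation are known to induce, had the largest log2 change of the 6 members tested in both comparisons with Control. Between TP+hucMSC-Exs and TP its change was the smallest of the 6. It stood at 69.6 and 100.2 TPM in the TP+hucMSC-Exs libraries, at 13.3 and 1089 TPM in TP replicates 1 and 2, and at 0.92 and 2.98 TPM in the Control libraries. All 4 libraries from injured rats were above both Control libraries, and the TP values enclosed those of TP+hucMSC-Exs. The means were 84.9 ± 21.6 TPM in TP+hucMSC-Exs, 551 ± 761 TPM in TP and 1.95 ± 1.46 TPM in Control (SD, n = 2 each). Ranked by TPM from the highest, it was gene 393 and 341 in TP+hucMSC-Exs, 922 and 151 in TP, and 5755 and 3749 in Control.

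Timp1 rose in TP against Control by a log2 fold change of 5.79 ± 1.37 (SE; limma adjusted p = 0.0472), taken from log2(TPM + 0.5). That pseudocount makes the changes of low genes look smaller than they are. In this fit limma gave each gene's own spread no weight (infinite prior degrees of freedom), and the SE came from the variance trend over all genes. The SE and p therefore do not measure the spread of Timp1 between its own TP libraries, at 13.3 and 1089 TPM. Timp1 was the 1 member called of 6 tested; of all 11477 genes tested, 6 or 0.0523% were called. At an unadjusted p below 0.05 stood 2 of the 6 members, Timp1 and Adamts1, and 4.06% of all genes. The median of all genes tested was itself 1.50 higher in this comparison, and Timp1 lay 4.29 above it. In TP replicate 1 alone Timp1 was 2.63 above the median gene of that library, and in TP replicate 2 it was 5.93 above. Without TP replicate 2 the log2 fold change was 2.64 (adjusted p = 0.778), and leaving out any other library but TP replicate 1 also ended the call, with adjusted p between 0.717 and 0.894. Without TP replicate 1 it was 8.94 (adjusted p = 0.000645), in a fit that called all 6 members and 93.3% of all genes. Over 18 alternatives the fold change stayed positive, and Timp1 was called in 4, with adjusted p between 0.000645 and 0.969.

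In TP+hucMSC-Exs against Control, Timp1 had a log2 fold change of 5.24 ± 1.37 (SE; limma adjusted p = 0.0591) and missed the threshold of 0.05. It was 4.15 above the median gene, which was 1.09 higher. No member was called in this comparison, and 0.209% of all genes were, each of them higher. At an unadjusted p below 0.05 stood Timp1 alone of the members and 2.95% of all genes. The spread in this fit is the trend over all genes, taken from the residuals of all 3 groups. With only TP+hucMSC-Exs and Control fitted, the prior degrees of freedom were 3.5, so that the gene's own spread counted too. The SE of Timp1 was then 0.48 (limma adjusted p = 0.0106). Without TP replicate 1 the same difference had adjusted p = 0.0138, and without TP replicate 2 it had adjusted p = 0.0125. Those 3 fits called 5 of the 6 members, all but Timp3, beside 52.8%, 52.5% and 52.4% of all genes. With TP replicate 2 left out and median-of-ratios scaling, an alternative chosen after the data were seen, it was 4.01 (adjusted p = 0.0423) in a fit that called 154 of the 11477 genes. Over 18 alternatives it stayed between 4.01 and 5.89, with adjusted p between 0.0106 and 1 and a call in 8.

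**Figure D1:**
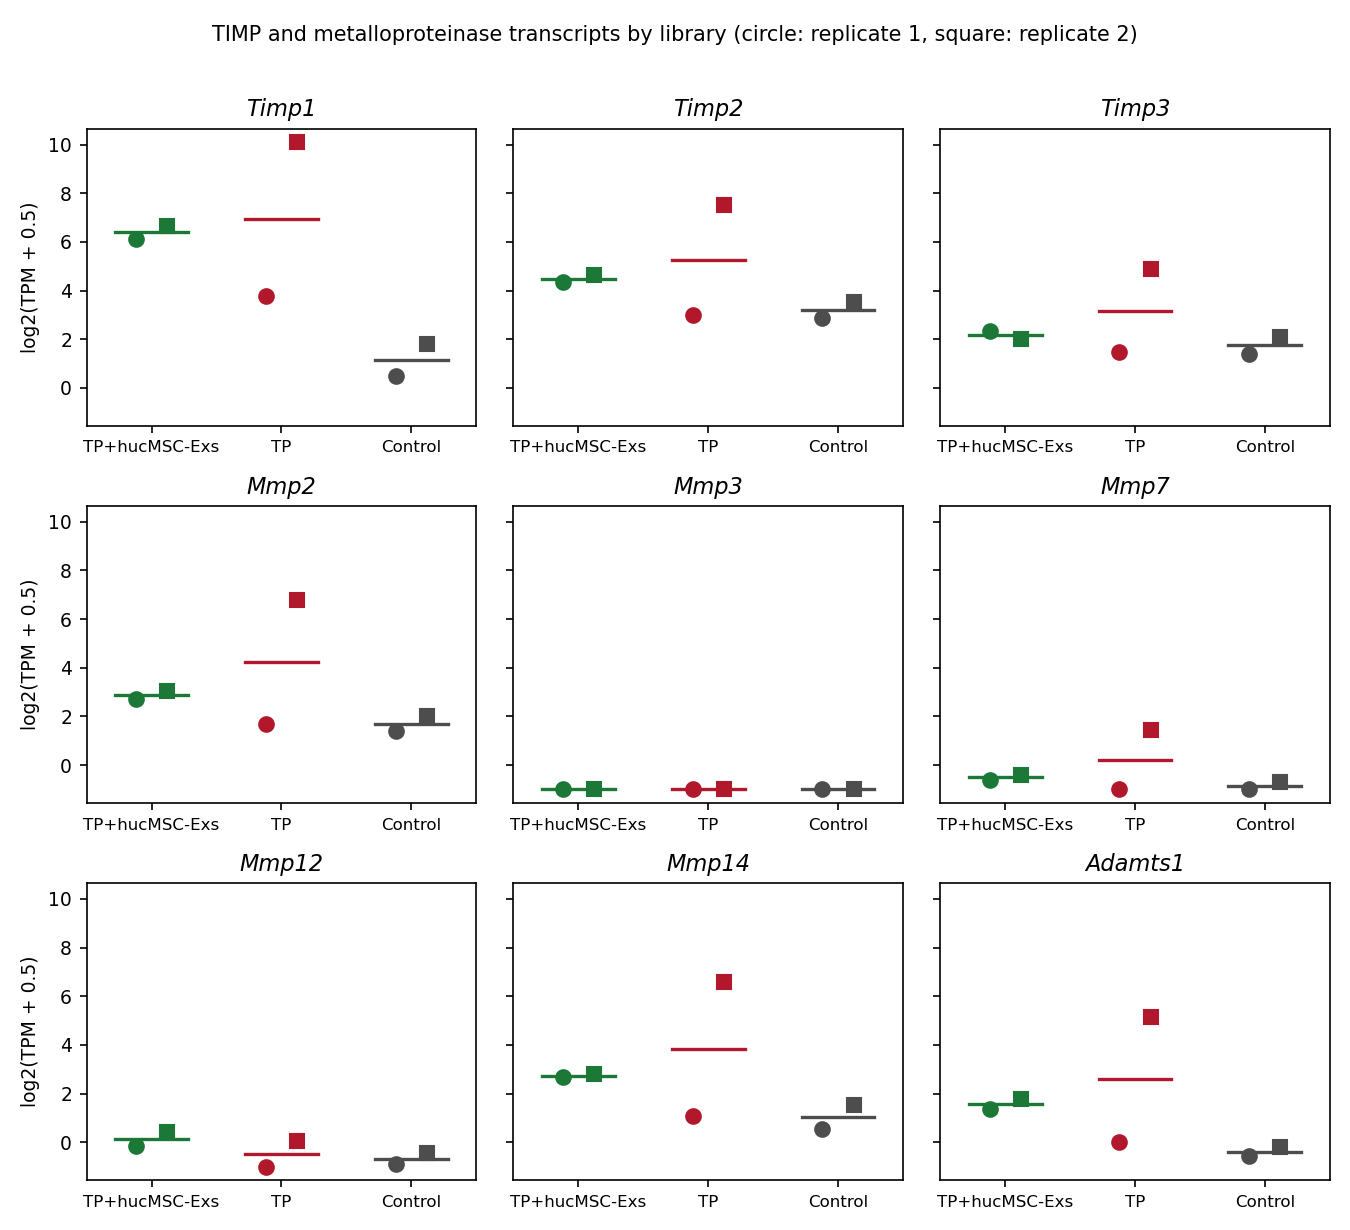
Level of each of the 9 members as log2(TPM + 0.5), a panel per gene, with groups on the x axis, a circle for replicate 1, a square for replicate 2 and a line at the group mean. Timp1 is higher in all 4 libraries of injured rats than in Control, TP replicate 2 is the highest point in 7 panels, and Mmp3 is at 0 TPM in all 6 libraries.

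The sequence upstream of Timp1 is shown because the human and mouse genes are known for an AP-1 element of unusual letters beside an ETS (PEA3) site, through which growth factors and cytokines act. RefSeq promoters of build GRCr8 were at hand for 7 of the 9 members. The 250 bases before the start were searched on both strands for TGAGTCA, the common AP-1 motif, for its variant TGAGTAA, and for the ETS motif AGGAAG. In the sequences below these letters are in capitals, 5′ to 3′ on the gene's strand, and the motifs do not overlap. The Timp1 stretch is chrX:3771123-3771372, minus strand, and the Timp2 stretch is chr10:104089215-104089464, minus strand.
Timp1: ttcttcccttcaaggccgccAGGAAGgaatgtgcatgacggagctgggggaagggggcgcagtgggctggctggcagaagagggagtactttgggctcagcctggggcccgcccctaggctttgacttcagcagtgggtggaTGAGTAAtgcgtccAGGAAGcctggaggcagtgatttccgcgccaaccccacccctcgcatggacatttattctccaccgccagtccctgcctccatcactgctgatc
Timp2: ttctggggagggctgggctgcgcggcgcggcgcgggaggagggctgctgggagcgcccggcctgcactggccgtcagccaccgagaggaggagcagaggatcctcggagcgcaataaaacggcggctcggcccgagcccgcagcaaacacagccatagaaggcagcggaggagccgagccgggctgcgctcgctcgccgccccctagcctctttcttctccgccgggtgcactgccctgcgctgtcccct

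Timp1 held the variant AP-1 letters 108 to 102 bases before the start and an ETS match 94 to 89 bases before it. A further ETS match lay 230 to 225 bases before it. None of the 3 motifs was found in this window of Timp2, Timp3 or Adamts1. Of 33469 rat promoters, 4.05% held TGAGTCA, 2.38% held TGAGTAA, 29.5% held AGGAAG, and 1.89% held an AP-1 form together with AGGAAG. A match is a description of letters and not a binding site. In RefSeq, Timp1 lies within the span of Syn1 and Timp3 within that of Syn3, both synapsin genes of neurons. Timp2 overlaps the gene Cep295nl. Syn1 stood at 0.08 to 0.71 TPM, Syn3 at 0 to 0.13 TPM and Cep295nl at 0 to 0.21 TPM in these libraries. The span of Timp1 also reaches upstream of the start used here.

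Timp2 (ENSRNOG00000003148), the inhibitor that many tissues make at a steady level and that also binds proMmp2 to Mmp14 at the cell surface, was the most abundant member in Control. It stood at 19.7 and 24.4 TPM in TP+hucMSC-Exs, at 7.46 and 185 TPM in TP, and at 6.88 and 11.0 TPM in Control. TP replicate 1 lay between the Control libraries, and both TP+hucMSC-Exs libraries were above them. The log2 fold change was 2.06 ± 1.39 in TP against Control (SE; limma adjusted p = 0.555) and 1.28 ± 1.39 in TP+hucMSC-Exs against Control (SE; limma adjusted p = 0.80). These were 0.56 and 0.19 above the median gene. With TPM rescaled without the digestive enzymes, Timp2 stood at 62.2 and 65.5 in TP+hucMSC-Exs, between the Control values of 56.5 and 69.3. Median-of-ratios scaling turned the sign in TP+hucMSC-Exs against Control, to -0.12, and leaving out TP replicate 2 turned it in TP against Control, to -0.21.

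Timp3 (ENSRNOG00000004303), the inhibitor that stays bound to the matrix and also blocks Adam and Adamts proteases, stood at 4.52 and 3.57 TPM in TP+hucMSC-Exs. It stood at 2.25 and 28.7 TPM in TP and at 2.16 and 3.77 TPM in Control. Both TP+hucMSC-Exs and TP overlapped Control. The log2 fold change was 1.41 ± 1.43 in TP against Control (SE; limma adjusted p = 0.555), 0.08 under the median gene. In TP+hucMSC-Exs against Control it was 0.42 ± 1.43 (SE; limma adjusted p = 0.851), 0.67 under the median gene. Median-of-ratios scaling turned both signs, to -0.22 in TP against Control and -0.85 in TP+hucMSC-Exs against Control. With TPM rescaled without the digestive enzymes it stood at 14.3 and 9.57 in TP+hucMSC-Exs, below the Control values of 17.7 and 23.7.

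Among the member proteases, Mmp2 and Mmp14 were the most abundant in every library. Mmp15, which is not a member, was above both in TP+hucMSC-Exs replicate 1 and in Control replicate 1. Mmp2 (ENSRNOG00000016695), gelatinase A, which cuts denatured collagen and basement membrane collagen, stood at 6.12 and 7.68 TPM in TP+hucMSC-Exs, at 2.75 and 109.9 TPM in TP, and at 2.11 and 3.52 TPM in Control. TP replicate 1 lay between the Control libraries, and TP+hucMSC-Exs lay above them. Its log2 fold change was 2.55 ± 1.43 in TP against Control (SE; limma adjusted p = 0.555) and 1.18 ± 1.43 in TP+hucMSC-Exs against Control (SE; limma adjusted p = 0.80), 1.05 and 0.09 above the median gene. Median-of-ratios scaling turned the sign of the second, to -0.11. In TP against Control the value was 0.0048 without TP replicate 2 and 5.09 without TP replicate 1.

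Mmp14 (ENSRNOG00000010947), the membrane-bound collagenase that activates proMmp2, stood at 5.88 and 6.52 TPM in TP+hucMSC-Exs, at 1.63 and 95.6 TPM in TP, and at 0.97 and 2.37 TPM in Control. Again TP replicate 1 lay between the Control libraries. The log2 fold change was 2.80 ± 1.43 in TP against Control (SE; limma adjusted p = 0.555) and 1.70 ± 1.43 in TP+hucMSC-Exs against Control (SE; limma adjusted p = 0.80). These were 1.31 and 0.61 above the median gene. In TP against Control the value was 0.052 without TP replicate 2 and 5.55 without TP replicate 1. For TP+hucMSC-Exs against Control it was 0.51 on median-of-ratios scaling, 0.40 on quantile normalization and 0.70 once digestive enzymes were taken out of the total.

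Adamts1 (ENSRNOG00000001607), a secreted protease that cuts the proteoglycans versican and aggrecan, stood at 2.07 and 2.90 TPM in TP+hucMSC-Exs, at 0.52 and 34.9 TPM in TP, and at 0.17 and 0.38 TPM in Control. It and Timp1 were the members whose TP libraries did not overlap Control. The log2 fold change was 2.97 ± 1.44 in TP against Control (SE; limma adjusted p = 0.555) and 1.94 ± 1.44 in TP+hucMSC-Exs against Control (SE; limma adjusted p = 0.80), 1.47 and 0.85 above the median gene. In TP against Control it was 0.41 without TP replicate 2 and 5.53 without TP replicate 1. Quantile normalization gave 1.54 in TP and 0.92 in TP+hucMSC-Exs against Control. A lack of overlap was common among all genes tested: 23.1% were higher in both TP libraries than in both Control libraries, beside 2 of the 6 members tested. For TP+hucMSC-Exs against Control it was 86.9% of genes, beside 5 of the 6 members, all but Timp3.

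**Figure D2:**
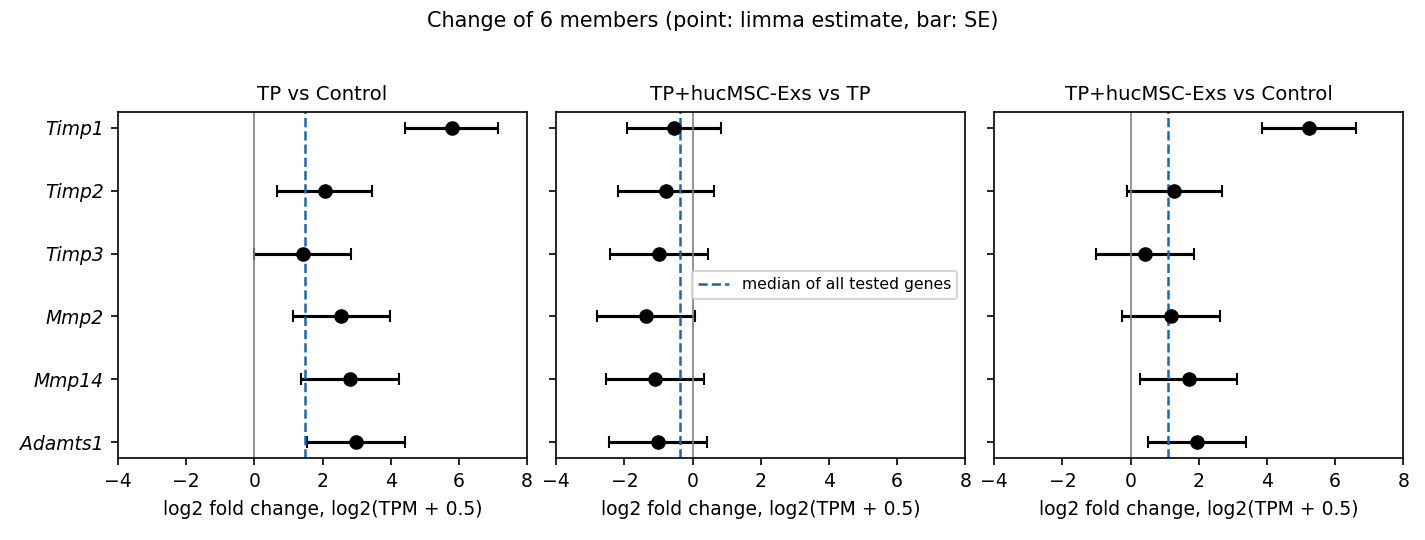
Log2 fold change on the scale of log2(TPM + 0.5) with its SE for the 6 members tested, a panel per comparison; the dashed line is the median of all 11477 genes tested. In TP against Control and TP+hucMSC-Exs against Control, Timp1 at 5.79 and 5.24 stands away from the other members, whose bars reach or come near the median gene.

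The remaining 3 proteases had a mean below 1 TPM over the 6 libraries and were below the filter for testing. Mmp7 (ENSRNOG00000010507), matrilysin, a small protease known from duct-like epithelium of injured human and mouse pancreas, stood at 0.16 and 0.25 TPM in TP+hucMSC-Exs, at 0 and 2.21 TPM in TP, and at 0 and 0.11 TPM in Control. Mmp12 (ENSRNOG00000030187), the macrophage elastase, stood at 0.40 and 0.86 TPM in TP+hucMSC-Exs, at 0 and 0.53 TPM in TP, and at 0.04 and 0.23 TPM in Control. Mmp12 was the member for which TP replicate 2 was not the highest library, among those above 0. The TP+hucMSC-Exs libraries of both genes were above Control, at values near 0 TPM. Of the genes that passed the filter 86.9% were so, and the share among genes below it was not counted. Without the filter on low values, limma gave adjusted p between 0.561 and 1 for Mmp7 and Mmp12 in the 3 comparisons. Mmp3 (ENSRNOG00000032626), stromelysin 1, a protease that activates other metalloproteinases, was listed at 0 in all 6 libraries.

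The common AP-1 letters TGAGTCA were found upstream of these 3 proteases and of no other member searched, and their windows are shown beside that of Timp1 for this reason. They are 80 bases on the plus strand of build GRCr8, at chr8:12925173-12925252 for Mmp3, chr8:13132926-13133005 for Mmp7 and chr8:12866528-12866607 for Mmp12, all on chromosome 8. The motif is in capitals.
Mmp3: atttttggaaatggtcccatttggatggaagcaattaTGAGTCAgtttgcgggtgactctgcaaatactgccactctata
Mmp7: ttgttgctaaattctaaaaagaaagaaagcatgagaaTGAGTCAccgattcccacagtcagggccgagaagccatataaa
Mmp12: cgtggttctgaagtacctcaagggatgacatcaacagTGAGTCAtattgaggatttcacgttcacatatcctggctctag

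The first base of the motif lay 71 bases before the start in Mmp3, 80 in Mmp7 and 87 in Mmp12. Mmp3 also held TGAGTAA 144 to 138 bases before the start, and Mmp3 and Mmp7 each held an ETS match. These 3 genes stood at 0 to 2.21 TPM in the 6 libraries.

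A ratio of genes within a library is free of the scaling between libraries. Timp1 over Timp2 was 3.54 and 4.10 in TP+hucMSC-Exs, 1.79 and 5.88 in TP, and 0.134 and 0.270 in Control. Timp2 transcripts outnumbered those of Timp1 in both Control libraries, and the order was turned round in all 4 libraries from injured rats, TP replicate 1 among them. The log2 of this ratio was 4.09 higher in TP than in Control and 4.33 higher in TP+hucMSC-Exs than in Control. Without TP replicate 2 the difference between TP and Control was 3.23. For 2 libraries against 2, an exact permutation test (two-sided) cannot give a p below 0.333. The ratios were chosen after the values were seen. With the pseudocount of 0.5 on both genes, 6.31% of all genes tested were higher over Timp2 in both TP libraries than in both Control libraries, and 24% were so in TP+hucMSC-Exs. In all 4 injured libraries it was 4.24%. Over Timp2, 18.1% were higher in both TP+hucMSC-Exs libraries than in both TP libraries, where Timp1 overlapped. By size of the difference from Control, 4 genes exceeded Timp1 in TP and 25 did in TP+hucMSC-Exs. That order is the same as for the plain log2 fold changes, because the same Timp2 values are subtracted from every gene.

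Timp1 was also higher relative to the other 4 members tested. Timp1 over Timp3 was 15.4 and 28.1 in TP+hucMSC-Exs, 5.92 and 37.9 in TP, and 0.426 and 0.790 in Control. Timp1 over Mmp14 was 11.8 and 15.4 in TP+hucMSC-Exs, 8.17 and 11.4 in TP, and 0.948 and 1.26 in Control. Timp1 over Mmp2 was 11.4 and 13.0 in TP+hucMSC-Exs, 4.84 and 9.91 in TP, and 0.436 and 0.847 in Control. Timp1 over Adamts1, which had the smallest gap to Control of the 5 ratios, was 33.6 and 34.5 in TP+hucMSC-Exs, 25.6 and 31.2 in TP, and 5.41 and 7.84 in Control. Timp1 was above Adamts1 in Control too, and above Mmp14 in Control replicate 2. In each of the 5 ratios all 4 injured libraries lay above both Control libraries. With the pseudocount, 24.6% of all genes tested did so over Timp3, 1.88% over Mmp2, 0.985% over Mmp14 and 0.61% over Adamts1.

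**Figure D3:**
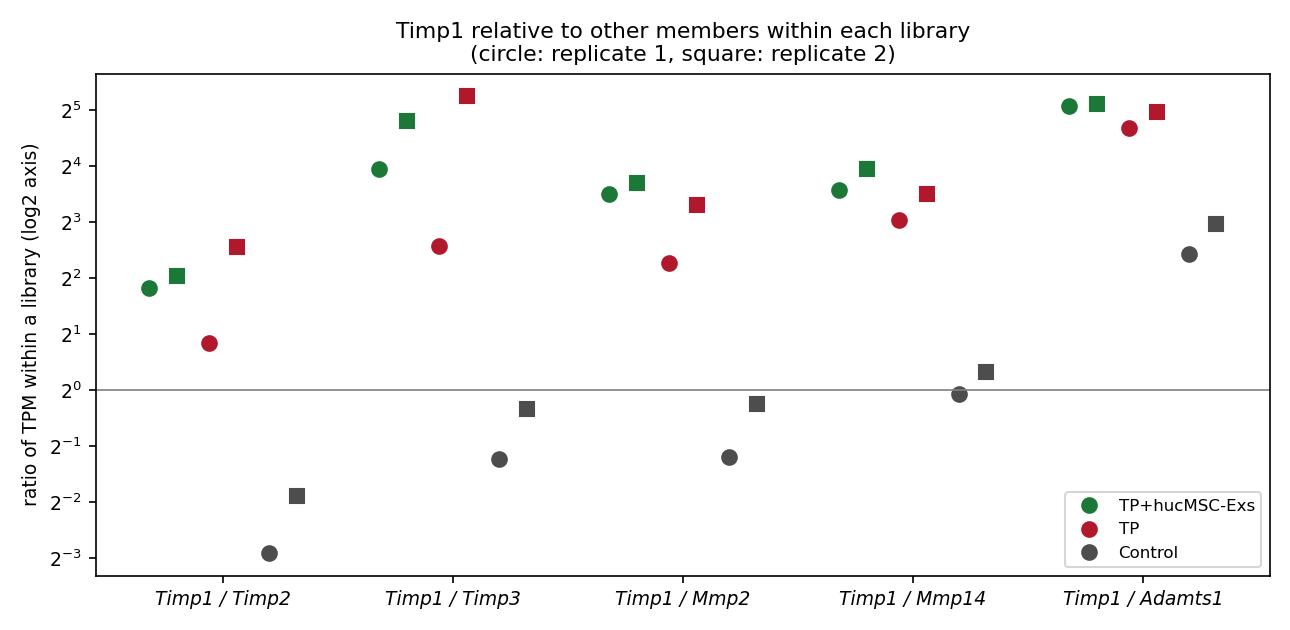
Ratio of Timp1 to each of 5 other members within a library, on a log2 axis, with groups as colours, a circle for replicate 1 and a square for replicate 2. All 4 libraries of injured rats lie above both Control libraries in each ratio; for Timp1 over Timp2 the lowest injured library is at 1.79 and the highest Control library at 0.270.

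Ratios among the parts of the Mmp2 activation complex moved less. Mmp14 over Mmp2 was 0.961 and 0.849 in TP+hucMSC-Exs, 0.593 and 0.870 in TP, and 0.460 and 0.673 in Control, so that TP overlapped Control. Timp2 over Mmp14 was 3.35 and 3.75 in TP+hucMSC-Exs, 4.58 and 1.94 in TP, and 7.09 and 4.66 in Control. Every library of injured rats was below both Control libraries in this ratio, TP replicate 1 by a narrow margin. Timp2 over Mmp2 was 3.21 and 3.18 in TP+hucMSC-Exs, 2.71 and 1.69 in TP, and 3.26 and 3.14 in Control. TP+hucMSC-Exs stayed within the Control range, and TP was below it. In TP against Control, 3.92% of all genes tested had a larger change than Mmp14 and 6.43% a larger change than Mmp2. In TP+hucMSC-Exs against Control it was 16.6% for Mmp14. Most genes thus fell relative to Mmp14, as Timp2 did, and the share that did so without overlap was not counted.

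Summed over the 3 inhibitors, transcripts stood at 93.8 and 128 TPM in TP+hucMSC-Exs, at 23.0 and 1303 TPM in TP, and at 9.96 and 17.8 TPM in Control. The 6 proteases summed to 14.6 and 18.2 TPM in TP+hucMSC-Exs, 4.90 and 243 TPM in TP, and 3.29 and 6.61 TPM in Control. Inhibitors over proteases came to 6.41 and 7.04 in TP+hucMSC-Exs, 4.70 and 5.36 in TP, and 3.03 and 2.69 in Control. The 3 groups did not overlap in this ratio of sums, a description without a test and without a matching share over other gene sets. The ratio depends on the genes summed. All 40 listed Mmp and Adamts genes in the table summed to 39.5 and 51.6 TPM in TP+hucMSC-Exs, 14.1 and 551 TPM in TP, and 10.7 and 19.3 TPM in Control. Over this wider sum, the inhibitors in TP+hucMSC-Exs and TP replicate 2 were nearly level. The rise over Control rested on Timp1: Timp2 and Timp3 summed, over the 6 proteases, were lower in every injured library than in Control. For 2 libraries against 2, an exact permutation test (two-sided) cannot give a p below 0.333. Among single genes, 18.1% over Timp2 and 37% over Mmp2 were higher in both TP+hucMSC-Exs libraries than in both TP libraries. Timp1 made up 64.2% and 68.4% of the summed TPM of the 9 members in TP+hucMSC-Exs, 47.7% and 70.4% in TP, and 6.94% and 12.2% in Control.

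**Figure D4:**
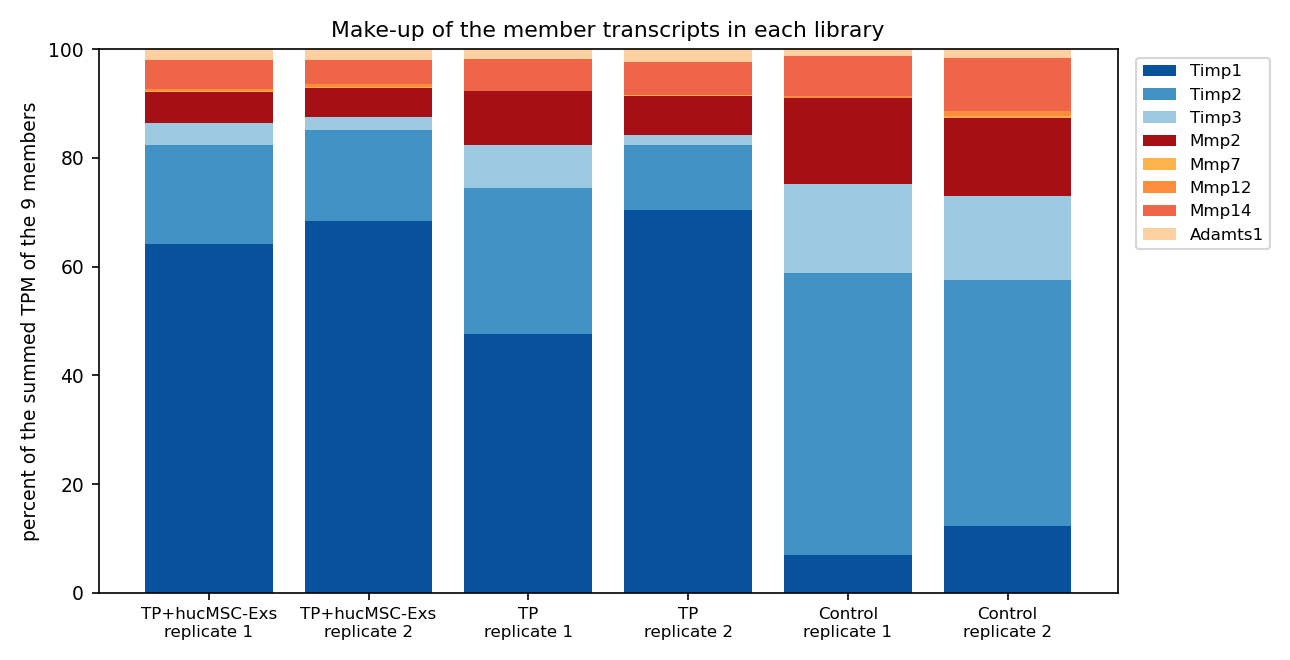
Share of each member in the summed TPM of the 9 members, in percent, as a stacked bar per library; Mmp3 is at 0 and not drawn. Timp1 takes 47.7% to 70.4% in the 4 libraries of injured rats and 6.94% and 12.2% in Control, where Timp2 is the largest part.

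Between the TP+hucMSC-Exs and TP groups no difference was detectable in any member. For all 9 genes the TP libraries enclosed or overlapped the TP+hucMSC-Exs values, and for 7 of them the TP+hucMSC-Exs libraries lay between TP replicates 1 and 2. The log2 fold changes were -0.55 ± 1.37 for Timp1, -0.78 ± 1.39 for Timp2, -0.99 ± 1.43 for Timp3, -1.36 ± 1.43 for Mmp2, -1.10 ± 1.43 for Mmp14 and -1.02 ± 1.44 for Adamts1 (SE). The limma adjusted p was 1 for each, and 0 of 6 members were called where 0.0697% of all genes were; 0 of 6 also had an unadjusted p below 0.05, against 1.32% of all genes. No member lacked overlap here, where 5.09% of all genes were higher and 1.62% lower without overlap. The median gene was 0.38 lower in TP+hucMSC-Exs than in TP. The sign rested on which TP library was used: without TP replicate 2 the fold change of Timp1 was 2.60 (adjusted p = 0.0619) with 1.91% of all genes called, and without TP replicate 1 it was -3.70 (adjusted p = 0.00727). In the fit without TP replicate 1, all 6 members were called, along with 83.1% of all genes.

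Within libraries, Timp1 over Mmp2, over Mmp14 and over Adamts1 was higher in both TP+hucMSC-Exs libraries than in both TP libraries, by 0.81, 0.48 and 0.27 (log2). With the pseudocount on both genes, Timp1 over Mmp2 remained without overlap, as did 37% of all genes tested over Mmp2. Over Mmp14 and over Adamts1, Timp1 then overlapped, and 13.3% and 18.4% of all genes were higher without overlap. Timp1 over Timp2 and over Timp3 overlapped between these groups. A p of 0.333 is again the smallest an exact permutation test allows.

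Of 41 Mmp and Adamts genes, the 6 members included, 40 were in the table, 17 had a mean of at least 1 TPM and 4 were at 0 in all libraries. Beside the members, 0 of 5 other Mmp genes and 0 of 9 other Adamts genes tested were called by limma in any of the 3 comparisons. Over all 8 lists of related genes described here, 50 genes were tested and 0 called; at an unadjusted p below 0.05 there were 14 in TP against Control, 1 in TP+hucMSC-Exs against TP and 7 in TP+hucMSC-Exs against Control. Over all 11477 genes these numbers were 466, 152 and 338. The median log2 change in TP against Control was 2.52 for the other Mmp and 1.94 for Adamts genes, against 1.50 for all genes. For TP+hucMSC-Exs against Control it was 1.28 and 0.66, against 1.09 for all genes. Mmp19, a protease of vessel and skin tissue, stood at 1.99 and 3.01 TPM in TP+hucMSC-Exs, 0.49 and 71.6 TPM in TP, and 0.18 and 0.34 TPM in Control. Mmp9, gelatinase B of neutrophils and macrophages, stood at 0.99 and 3.58 TPM in TP+hucMSC-Exs, 0.19 and 40.6 TPM in TP, and 0 and 0.20 TPM in Control. Mmp24, a membrane-bound protease, stood at 4.08 and 6.13 TPM in TP+hucMSC-Exs, 1.37 and 20.8 TPM in TP, and 1.64 and 1.92 TPM in Control. In these 3 genes, the highest other Mmp genes by mean TPM over the 6 libraries, TP replicate 2 was the highest library. TP+hucMSC-Exs was above Control in each, as in 86.9% of all genes tested. Mmp15 stood at 7.32 and 7.46 TPM in TP+hucMSC-Exs, 1.93 and 12.2 TPM in TP, and 2.53 and 3.39 TPM in Control. It was above those 3 genes in the TP+hucMSC-Exs and Control libraries. Its log2 fold change in TP against Control was 0.69 ± 1.43 (SE), below the median gene. By mean TPM over the 6 libraries, in which TP replicate 2 weighs most, the first 3 other Adamts genes were Adamts15, Adamts10 and Adamts2, which cuts the propeptide of collagen. Adamts2 stood at 0.74 and 0.64 TPM in TP+hucMSC-Exs, 0.32 and 17.0 TPM in TP, and 0.37 and 0.62 TPM in Control. The collagenases Mmp1 and Mmp13 were listed at 0 to 0.01 TPM, and the neutrophil collagenase Mmp8 at 0 to 1.71 TPM.

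Among 6 other inhibitors and modulators, 0 were called in any comparison. A2m, alpha-2-macroglobulin, a broad protease trap that is a strong acute-phase protein in rat, differed from Timp1 in where it was high. It stood at 15.8 and 36.8 TPM in TP+hucMSC-Exs, 7.03 and 0.58 TPM in TP, and 0 and 0.26 TPM in Control. All 4 injured libraries were above Control, but TP replicate 2, the highest library for Timp1, was the lowest of the 4 for A2m. Its log2 fold change in TP+hucMSC-Exs against Control was 5.32 ± 1.42 (SE; limma adjusted p = 0.0746). Timp4, the fourth family member, stood at 1.26 and 0.89 TPM in TP+hucMSC-Exs, 1.26 and 7.08 TPM in TP, and 1.29 and 1.44 TPM in Control, so that no injured library other than TP replicate 2 was above Control.

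Of the 7 Adam sheddases, of 6 activators tested and of 7 partners and clearance receptors tested, 0 were called by limma in any comparison. Adam8, a sheddase of myeloid cells, stood at 6.65 and 11.1 TPM in TP+hucMSC-Exs, 0.16 and 16.2 TPM in TP, and 0.07 and 0.43 TPM in Control. Plaur, the urokinase receptor that localises plasmin formation, stood at 4.78 and 4.76 TPM in TP+hucMSC-Exs, 0.42 and 37.0 TPM in TP, and 0.42 and 0.35 TPM in Control. Cd63, a tetraspanin that binds Timp1, stood at 312 and 387 TPM in TP+hucMSC-Exs, 156 and 1320 TPM in TP, and 100.3 and 103 TPM in Control. All 4 injured libraries were above Control for Cd63.

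Of 7 cytokines known to induce Timp1 and metalloproteinases, 2 were high enough to be tested, Il1b and Tgfb1. Il1b stood at 1.18 and 2.56 TPM in TP+hucMSC-Exs, 0.24 and 26.7 TPM in TP, and 0.03 and 0.31 TPM in Control. Tnf was listed at 0 in all libraries, Il6 at 0 to 0.69 TPM and Osm at 0 to 2.46 TPM. Tgfb1 stood at 8.24 and 11.97 TPM in TP+hucMSC-Exs, 1.99 and 97.9 TPM in TP, and 0.60 and 4.58 TPM in Control. Of 10 matrix substrates tested 0 were called; their median log2 change was 3.52 in TP against Control and 2.19 in TP+hucMSC-Exs against Control. Col3a1, Col1a1 and Spp1 had the highest mean over the 6 libraries, though not in Control, where Dcn and Col4a1 were above Spp1. Spp1, osteopontin, a matrix protein of macrophages and epithelium, stood at 88.8 and 150 TPM in TP+hucMSC-Exs, 13.95 and 558 TPM in TP, and 3.68 and 2.87 TPM in Control. Vcan, the versican that Adamts1 cuts, stood at 7.72 and 14.6 TPM in TP+hucMSC-Exs, 1.02 and 142 TPM in TP, and 0.04 and 0.27 TPM in Control.

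Summed markers of macrophages, neutrophils and fibroblasts were highest in TP replicate 2, and above both Control libraries in TP+hucMSC-Exs. The median gene was shifted too, to 3.00 in TP replicate 2 and to 0.97 and 1.22 in TP+hucMSC-Exs (log2, Control mean as 0). The 8 macrophage markers summed to 412 and 763 TPM in TP+hucMSC-Exs, 55.2 and 4688 TPM in TP, and 18.3 and 143 TPM in Control. The 6 neutrophil markers summed to 56.7 and 103 TPM in TP+hucMSC-Exs, 2.99 and 479 TPM in TP, and 0.50 and 3.00 TPM in Control. The 9 fibroblast and stellate cell markers summed to 172 and 171 TPM in TP+hucMSC-Exs, 84.6 and 4890 TPM in TP, and 36.2 and 83.4 TPM in Control. In TP replicate 1, where Timp1 stood above both Control libraries, the macrophage and neutrophil sums lay within the Control range and the fibroblast sum just above it. That range is wide, because the Control libraries were unlike each other in these lists. Both sums in TP replicate 1 were above Control replicate 1, and the neutrophil sum was level with Control replicate 2. Lymphoid markers summed to 2.68 and 4.62 TPM in TP+hucMSC-Exs, 0.25 and 45.3 TPM in TP, and 0.18 and 35.5 TPM in Control. All macrophage and fibroblast markers were detected in every library, while 0 to 2 of the 6 neutrophil markers were at 0. Duct markers summed to 132 and 176 TPM in TP+hucMSC-Exs, 19.2 and 17.3 TPM in TP, and 16.5 and 19.2 TPM in Control. The part of these cell types in the levels of the 9 genes was not tested.

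**Figure D5:**
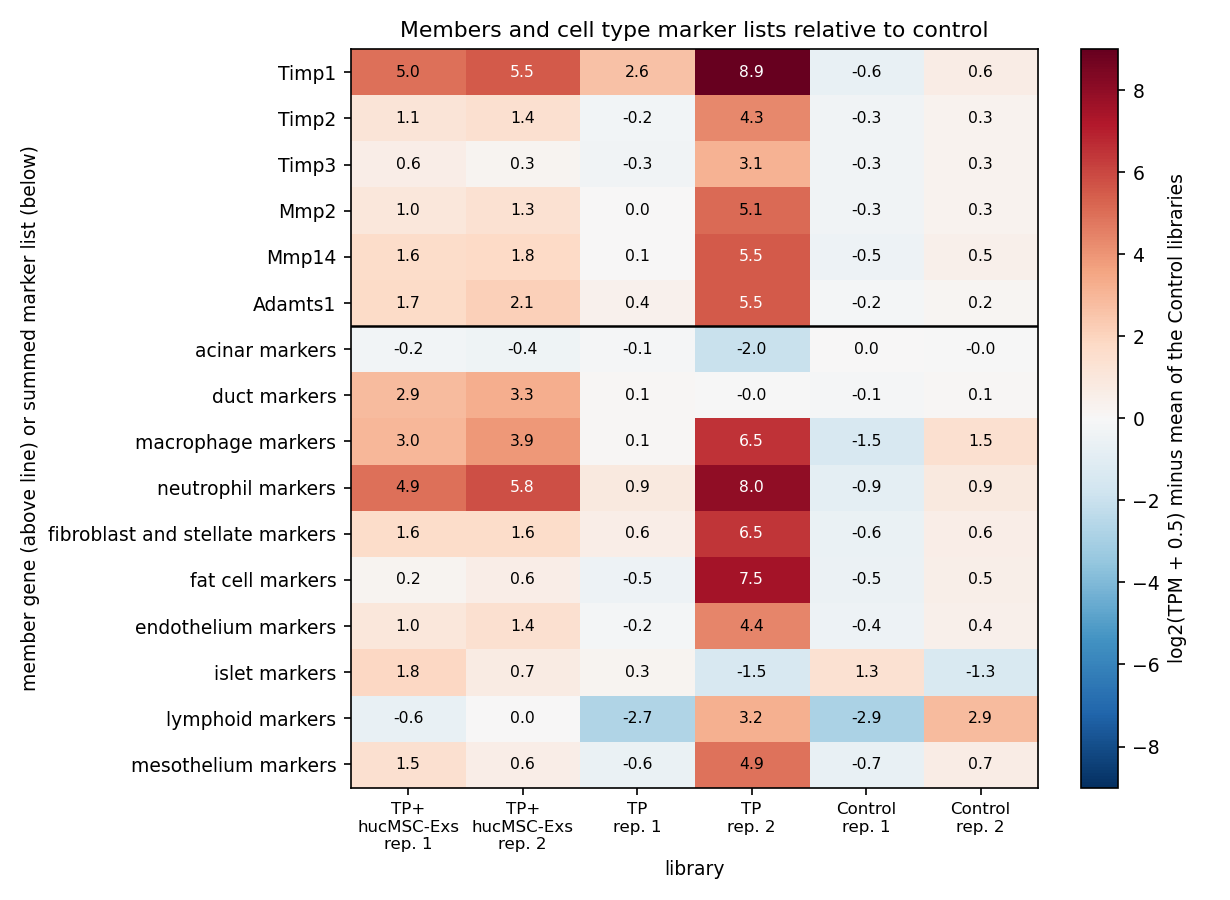
Level of 6 members (above the line) and summed level of 10 marker lists (below) in each library, as log2(TPM + 0.5) minus the mean of the Control libraries, coloured and printed. In TP replicate 1 Timp1 is 2.64 above the Control mean while the other rows lie within 1 of it, apart from the lymphoid list. For the macrophage, neutrophil and lymphoid lists that mean lies between unlike Control libraries. In TP replicate 2 the members and the fat cell, fibroblast, macrophage and neutrophil lists are all high.

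Ratios to Col3a1, a fibrillar collagen of fibroblasts, differed between members. Timp1 over Col3a1 was 0.942 and 1.59 in TP+hucMSC-Exs, 0.324 and 0.488 in TP, and 0.0606 and 0.0852 in Control. Mmp2 over Col3a1 was 0.0828 and 0.122 in TP+hucMSC-Exs, 0.0669 and 0.0492 in TP, and 0.139 and 0.101 in Control. Timp1 was thus high relative to the collagen in all 4 injured libraries, while Mmp2 was below both Control libraries in TP and overlapped them in TP+hucMSC-Exs. With the pseudocount, 0.2% of all genes tested were higher over Col3a1 in all 4 injured libraries than in Control. Adamts1 over Col3a1 was 0.0280 and 0.0461 in TP+hucMSC-Exs, 0.0127 and 0.0156 in TP, and 0.0112 and 0.0109 in Control, without overlap as a plain ratio and with overlap once the pseudocount was added. Timp2, Timp3 and Mmp14 over Col3a1 were below both Control libraries in TP. In TP+hucMSC-Exs Timp2 overlapped Control, Timp3 was below it and Mmp14 above it. Col3a1 itself was 3.69 higher in TP than in Control (log2), against 1.50 for the median gene. In TP+hucMSC-Exs it was 1.54 higher, against 1.09. A gene of median change would thus also fall relative to Col3a1, and the share of all genes that were lower over it was not counted.

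By Pearson correlation of log2(TPM + 0.5) over the 6 libraries, a description of likeness in which TP replicate 2 weighs most, the genes nearest to Timp1 were Churc1, Tubb6 and Rnh1, at r = 0.998, 0.998 and 0.997. Without the 2 libraries farthest from the median of Timp1 these were 0.997, 0.994 and 0.993. Tubb6, a beta tubulin, stood at 23.1 and 33.1 TPM in TP+hucMSC-Exs, 3.73 and 233 TPM in TP, and 0.37 and 1.26 TPM in Control. Among 10010 genes compared, 58 had an r above 0.99 with Timp1, against 2346 with Timp2, 1470 with Mmp2, 2395 with Mmp14, 1945 with Adamts1 and 210 with Timp3. The nearest genes were Trio, Fam20b and Wdr11 for Timp2, and Polr1a, Arl5a and Arl2bp for Mmp14. They were Rbl1, Kpna2 and Ube2g1 for Mmp2, and Cox6a1, Rbms3 and Isyna1 for Adamts1. For Timp3 they were Chchd6, the elastic fibre gene Eln and Ltbp4. The pattern of Timp2, Mmp2, Mmp14 and Adamts1 over these libraries was thus shared by many genes.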

How the data were processed

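The authors deposited gene-level TPM, 1 column per library; aligner and quantifier were not given in the sources used here. RNeasy extraction and SMARTer mRNA libraries were used, per the labels' protocols. The submitters' processing notes name mouse builds (GRCm38, mm10), while 32883 of 34001 identifiers are rat Ensembl ones; this was not settled. Each column sums to 1000000 TPM. TP columns carry an unexplained number and were assigned by group name and replicate. Each replicate is a separate rat, per the series text. Genes with a mean of at least 1 TPM were kept (11477), transformed to log2(TPM + 0.5) and fitted in 1 model of 3 group means with limma 3.58.1 in R 4.3.3, with a variance trend, 3 residual degrees of freedom and Benjamini-Hochberg adjustment at 0.05. The fit was tested on simulated data with independent noise of the same SD for all genes and no shift between libraries. Such data cannot test the effect of a library like TP replicate 2. The 9 genes, the gene lists and the alternatives were chosen with earlier results of these data known. All 9 genes are named; of other lists, genes called or of highest mean, any gene of lists of 9 or fewer, and the 3 most alike. Mmp8, Mmp13, Mmp1 and Vcan, named beside these, were chosen after their values were seen.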

Additional observations from a re-analysis of the deposited data

How the results depend on the processing

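Genes called in TP against Control, TP+hucMSC-Exs against TP and TP+hucMSC-Exs against Control, in that order throughout, numbered 6, 8 and 24 of 11477 with limma. A pseudocount of 0.1 gave 14, 10 and 36, a pseudocount of 1 gave 5, 8 and 12, and a filter of 5 TPM gave 5, 7 and 25. No variance trend gave 4, 11 and 21. No filter gave 0, 0 and 0 (160, 315 and 368 at an unadjusted p below 0.05), median-of-ratios scaling 0, 2 and 2 (668, 828 and 1068 unadjusted), quantile normalization 0, 0 and 0 (642, 983 and 1100 unadjusted), and rescaling without digestive enzymes 2, 0 and 5. Fitting only the groups compared gave 0 (85 unadjusted), 1 and 6056. Leaving out 1 library gave 0 to 10706, 0 to 9537 and 1 to 6031. Without TP replicate 2, median-of-ratios scaling gave 17, 19 and 154 and rescaling without enzymes 20, 59 and 452; both were added after the data were seen.

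Members called numbered 1, 0 and 0. In TP against Control it was 0 with a pseudocount of 1, no filter, no trend, any rescaling (also without TP replicate 2) or only the groups compared, and 0 to 6 with 1 library left out. Against TP, TP+hucMSC-Exs had 0 to 6 with 1 library left out. For TP+hucMSC-Exs against Control it was 1 with a pseudocount of 0.1, a filter of 5 TPM, the replicate block and both added settings, 5 with only the groups compared, and 0 to 5 with 1 library left out. The causes were not tested.

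The labels number the rats 1 and 2 in each group without saying that a number is shared. With the replicate block, 10, 22 and 35 genes were called, and 1, 0 and 1 members. Deviations of same-numbered libraries correlated at r = 0.14 (TP+hucMSC-Exs and TP), 0.28 (TP and Control) and 0.08 (TP+hucMSC-Exs and Control), across genes.

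Signs turned as follows (log2). In TP against Control with 1 library left out, Timp2 ranged between -0.21 (without TP replicate 2) and 4.33, and Timp3 between -0.29 and 3.12; without TP replicate 2 and with median-of-ratios scaling they were -0.20 and -0.30, and with enzymes removed Timp2 was -0.64, Timp3 -0.74, Mmp2 -0.40 and Mmp14 -0.30. With TP replicate 2 kept, Timp3 was -0.22 on median-of-ratios and -0.24 on quantile scaling. For TP+hucMSC-Exs against TP, leaving out TP replicate 1 or 2 set the range: -3.70 to 2.60 for Timp1, -3.05 to 1.49 for Timp2, -2.69 to 0.72 for Timp3, -3.91 to 1.18 for Mmp2, -3.84 to 1.65 for Mmp14 and -3.58 to 1.54 for Adamts1, higher without TP replicate 2. With median-of-ratios and without TP replicate 2 Timp1 was 1.17, Timp2 0.085, Mmp14 0.41 and Adamts1 0.57; with enzymes removed Timp1 was 1.76, Timp2 0.67, Mmp2 0.43, Mmp14 1.00 and Adamts1 1.22. Against Control in TP+hucMSC-Exs, median-of-ratios scaling, with or without TP replicate 2, gave Timp2 -0.12, Timp3 -0.85 and Mmp2 -0.11; quantile gave -0.094, -0.90 and -0.18; enzyme removal, with or without TP replicate 2, gave Timp3 -0.78. Timp1 over Timp2 in TP+hucMSC-Exs minus TP ranged between -0.63 without TP replicate 1 and 1.09 without TP replicate 2.

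There were 2 rats a group and depth is unknown, so that a value of 0 TPM has no limit to state.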
